A study of Mus musculus with 24 samples.

Results

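Binding of the nuclear receptor Rev-erbα was examined at 6 mouse genes that bring fatty acids from circulating lipoproteins into cells: Lpl, Angptl4, Gpihbp1, Cd36, Fabp4 and Fabp5. The genes were taken as listed, out of 22350 protein-coding genes in the GENCODE vM1 models of the mm9 genome, and a site was given to a gene where it lay between 20 kb before and 20 kb after the gene body. The 6 windows held 13 peaks and 93 liver borders. All 3 groups used came from wild-type C57BL/6J mice (strain label C57BL/6) at zeitgeber time 10, that is 10 h after lights on, and were precipitated with the same Rev-erbα antibody. They were epididymal white fat (eWAT, ChIP-seq, 2 libraries, 9016 peaks of 150 bp), brain from the ventral tegmental area (ChIP-seq, 1 library, 10687 peaks) and liver (ChIP-exo, 2 libraries, 245360 strand-specific borders, the places where an exonuclease stopped at a crosslinked protein). The series holds 24 samples in 16 groups. Not analysed here were the remaining 13 groups, which include inputs, Rev-erbα mutant livers and precipitations of HDAC3, RORα and RORγ.

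Lipoprotein lipase, the product of Lpl, cleaves triglycerides of circulating lipoproteins at the surface of capillaries. GPIHBP1 carries the enzyme across the endothelial cell and holds it there, and ANGPTL4, a secreted protein induced by fasting, inactivates it. The fatty acids set free enter fat and muscle cells with the help of CD36, a membrane receptor for long-chain fatty acids, and are carried in the cytoplasm by the binding proteins FABP4, the main form of adipocytes, and FABP5. Lpl, Angptl4, Cd36 and Fabp4 are textbook targets of the adipocyte receptor PPARγ. Rev-erbα (gene Nr1d1) is a repressor of the circadian clock that binds an A/T-rich stretch followed by an AGGTCA core, or by GGGTCA in a variant, and recruits a corepressor with the deacetylase HDAC3.

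The 6 genes differed in which list held their peaks. An eWAT peak was listed for 4 of the 6 genes, Lpl, Angptl4, Cd36 and Fabp4, where 28.7% of all protein-coding genes had one in the same window. A brain peak was listed for 2 of the 6, Angptl4 and Fabp5, where 41.5% of all genes had one. Lpl, Cd36 and Fabp4 had eWAT peaks and no brain peak (3 of 6, against 11.2% of all genes). Fabp5 had a brain peak and no eWAT peak (against 24.0%), Angptl4 had both kinds (against 17.5%), and Gpihbp1 had neither (against 47.3%). Each group was deposited as 1 list, so no spread between mice could be computed, and these counts describe the lists without a test. The genes were chosen with earlier results of these data known, and a gene with a longer window has more room for a peak: the Cd36 window spans 147.3 kb and the Gpihbp1 window 41.6 kb, against a median of 55.4 kb.

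**Figure D1:**
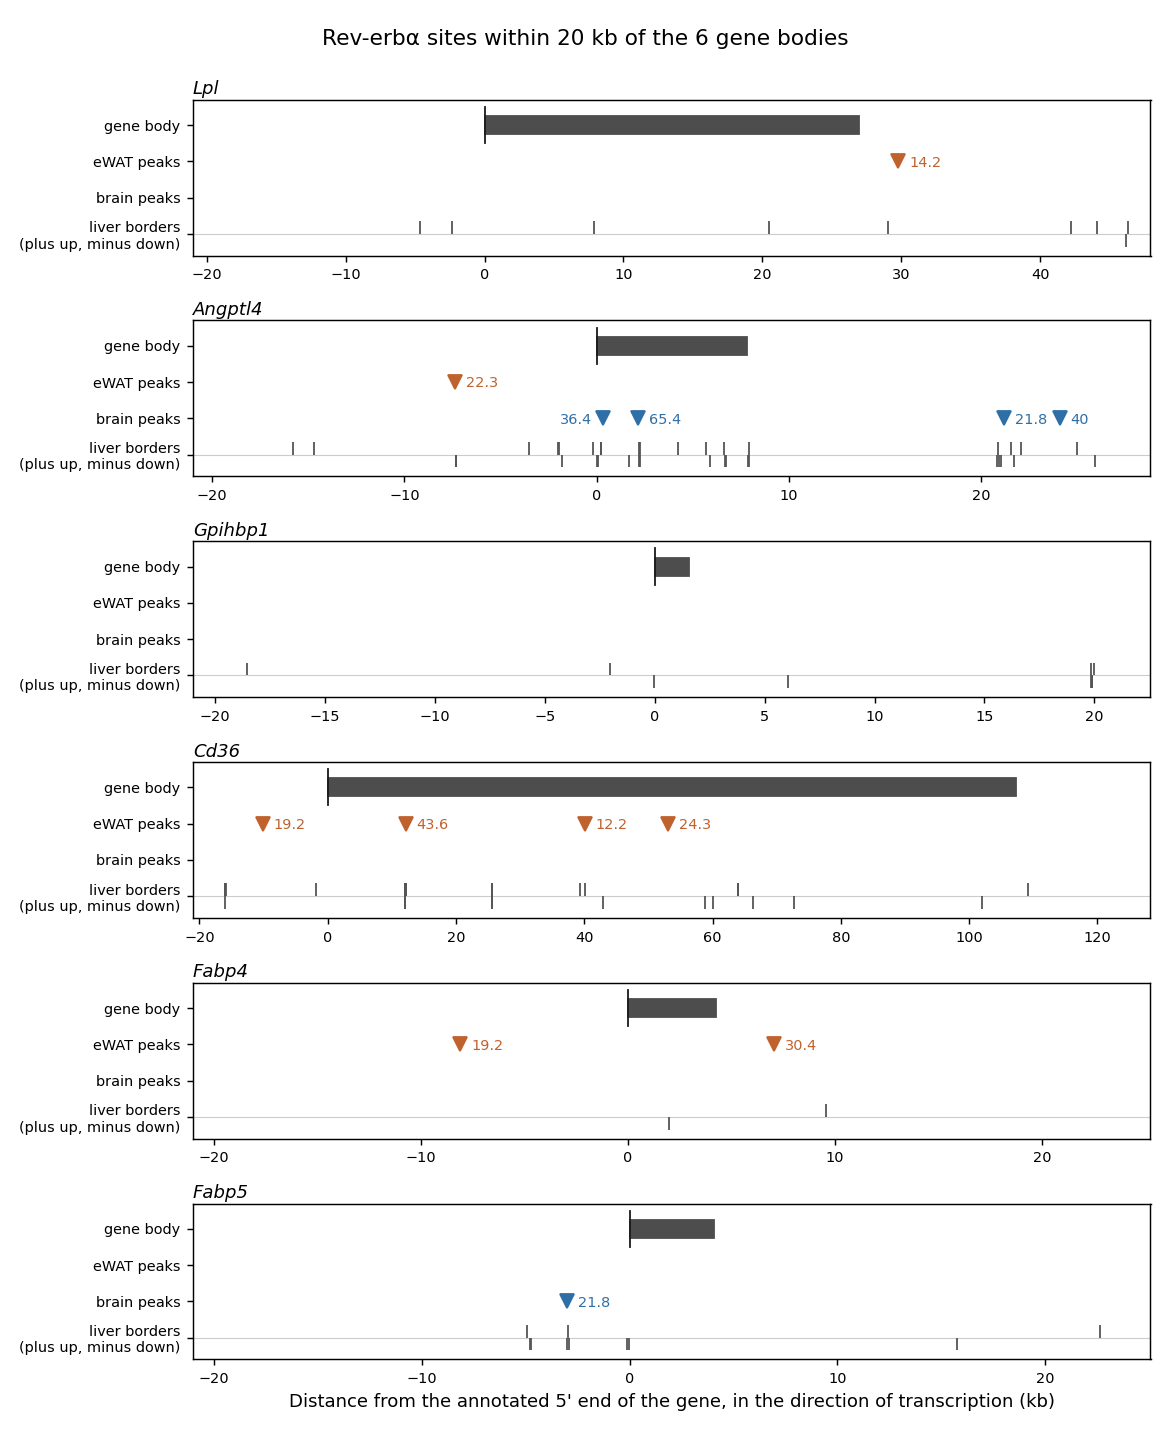
Maps of the 6 windows: the gene body (grey bar), eWAT peaks (orange) and brain peaks (blue) with their deposited scores, and liver ChIP-exo borders as ticks, up for the plus and down for the minus strand of the chromosome, against the distance from the annotated 5′ end in kb, read in the direction of transcription. Cd36 holds 4 eWAT peaks, Angptl4 holds 1 eWAT and 4 brain peaks, and Gpihbp1 holds no peak.

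No site was common to the fat and brain lists within these windows. Of the 8 eWAT peaks, 0 overlapped a brain peak, against 7.83% of all eWAT peaks, and likewise 0 of the 5 brain peaks overlapped an eWAT peak, against 6.61%. At Angptl4, the only member with both kinds, the closest pair lay 7703 bp apart. For the Cd36 peaks the nearest brain peak was between 107 and 170 kb away, and for the Fabp4 peaks 74.3 and 89.4 kb away.

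By score, 9 of the 13 peaks stood above the median of their list, and the best-placed held rank 421 in eWAT and rank 438 in brain. The score is the authors' own, with no unit given in the files, and is compared here only within a list. The 8 eWAT peaks scored from 12.2 to 43.6 with a median of 20.75, where the whole eWAT list ran from 10.1 to 281.6 with a median of 14.2. Above that median lay 6 of the 8, and the Lpl peak lay exactly on it. The 5 brain peaks scored from 21.8 to 65.4 with a median of 36.4, in a list running from 14.5 to 516.3 with a median of 25.5, and 3 of the 5 lay above it. Scores move in fixed steps of 1.013 in eWAT and 3.636 in brain, so that a brain score of 21.8 is 6 steps high and is the score of 2984 peaks. Ranks below count tied peaks from the best place they share.

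**Figure D2:**
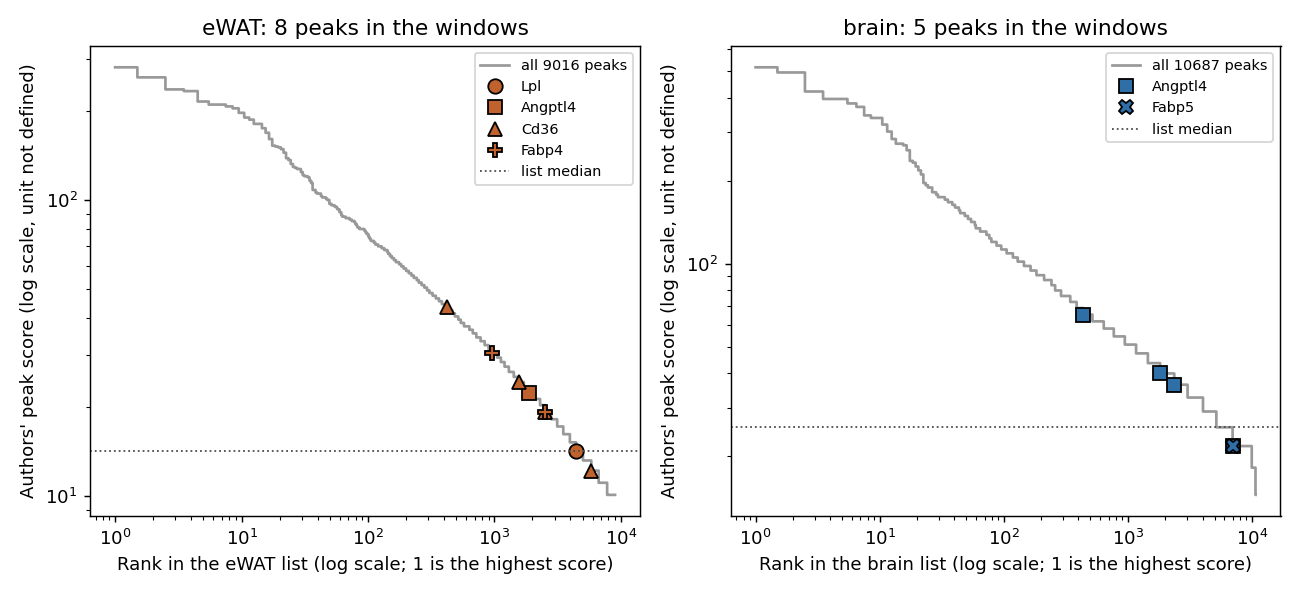
Deposited score against rank, both on log scales, for all peaks of the eWAT list (left) and the brain list (right) in grey, with the peaks in the 6 windows marked by gene and the list median dotted. The best-placed are Cd36 at rank 421 in eWAT and Angptl4 at rank 438 in brain; symbols coincide at rank 2526 (Cd36 and Fabp4) and at rank 6985 (Angptl4 and Fabp5).

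Lpl (ENSMUSG00000015568.8, chromosome 8, 71404390 to 71431347, plus strand), the lipase itself, had a single peak. It was an eWAT peak at 71434111 to 71434260, intergenic, 2838 bp beyond the 3′ end of the gene and 29795 bp downstream of its 5′ end. Its score was 14.2 (rank 4438 of 9016), equal to the list median. It was the 1 peak of the 13 with a match to the Rev-erbα response element as searched here (an A/T-rich stretch, then TAGGTCA or TGGGTCA). The match had the GGGTCA form. With both forms counted together, 3.46% of eWAT peaks and 0.277% of regions of the same width 1000 bp away hold the element. The sequence is shown for that match, which stands in capitals and reads TATGTGGGTCA on the minus strand.
Lpl eWAT site (mm9 chr8:71434111-71434260, plus strand): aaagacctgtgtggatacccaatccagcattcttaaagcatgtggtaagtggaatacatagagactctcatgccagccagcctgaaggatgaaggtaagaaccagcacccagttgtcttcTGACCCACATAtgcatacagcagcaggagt
No liver border lay within 100 bp of this peak, the nearest being 762 bp away. The window held 9 liver borders, 8 on the plus and 1 on the minus strand, with signals from 0.1743 to 0.6245 and no opposite-strand pair. None lay within 1 kb of any of the 4 annotated Lpl starts. At 0.134 borders per kb the gene stood at the middle of all genes, whose median was 0.135.

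Angptl4 (ENSMUSG00000002289.9, chromosome 17, 33910695 to 33918520, minus strand), the inhibitor of the lipase, had 5 peaks in its window, the most of the 6, of which 2 lie in a neighbouring gene; without these it had 3, against 4 at Cd36. At least 4 brain peaks, these 2 included, were found for 2.68% of all genes. In eWAT it had 1 peak, at 33925800 to 33925949, intergenic and 7354 bp upstream of the start, with a score of 22.3 (rank 1878). In brain it had 4, of which the highest lay in the third intron, 2139 bp downstream of the start (33916307 to 33916456, score 65.4, rank 438), and the next of the gene itself in the first exon, 349 bp downstream of the start (33918097 to 33918246, score 36.4, rank 2367). The intron site also lay 293 bp upstream of an internal Angptl4 start at 33916088. Both of these brain sites fall inside the gene, whereas the fat site lies outside it. The other 2 brain peaks lay beyond the end of Angptl4 in the neighbouring gene Rab11b, which encodes a small GTPase of vesicle recycling. One was in an intron (33894356 to 33894505, score 40, rank 1821) and 1 in an exon 45 bp upstream of a Rab11b start (33897222 to 33897371, score 21.8, rank 6985). The start nearest to each of these 2 belongs to Rab11b.

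The fat site and the pair of brain sites inside Angptl4 differ in their letters, and are shown for that comparison.
Angptl4 eWAT upstream site (mm9 chr17:33925800-33925949, plus strand): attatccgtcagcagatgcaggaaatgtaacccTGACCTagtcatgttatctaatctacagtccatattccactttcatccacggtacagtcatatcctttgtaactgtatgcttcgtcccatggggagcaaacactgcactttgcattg
Angptl4 brain intron site (mm9 chr17:33916307-33916456, plus strand): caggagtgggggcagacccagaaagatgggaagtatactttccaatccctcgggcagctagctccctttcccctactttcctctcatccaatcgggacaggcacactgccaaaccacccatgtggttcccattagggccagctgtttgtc
Angptl4 brain exon site (mm9 chr17:33918097-33918246, plus strand): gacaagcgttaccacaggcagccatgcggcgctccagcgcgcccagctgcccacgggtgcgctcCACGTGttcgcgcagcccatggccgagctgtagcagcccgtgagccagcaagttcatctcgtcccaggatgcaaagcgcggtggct
Capitals in the first mark the AGGTCA core on the minus strand, which 19% of eWAT peaks and 9.36% of regions 1000 bp away hold, and in the last the E-box CACGTG, the palindrome bound by clock activators, which 8.17% of brain peaks hold. The intron site held no match to the motifs searched. The exon site contained 15 CpG dinucleotides and was 67.3% G and C, the intron site 2 and 55.3%, and the upstream site 3 and 43.3%.

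Liver borders were dense around Angptl4. Its window held 36 borders, 0.753 per kb, the 97.4th percentile of all genes, with signals up to 2.2779. Some of these lay in or next to Rab11b, which the window also takes in. Within 1 kb of an Angptl4 start lay 10 of the 36. The eWAT site had 2 minus-strand borders, 51 and 19 bp below its centre. The brain intron site had a minus border and a plus border 87 and 69 bp below its centre with signals of 1.1025 and 1.5496, the latter reached by 4.09% of all borders. The brain exon site had 1 border, 95 bp from its centre. Of 3 border pairs in the window, the strongest (33910566 and 33910613, 47 bp apart, summed signal 3.326) stood at the 3′ end of the gene, where neither peak list has a site. The one nearest the 5′ end lay in the intron (33916262 and 33916279, 17 bp apart, summed signal 1.924). The remaining pair (33897617 and 33897665, summed signal 0.605) lay 166 bp upstream of a Rab11b start.

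Gpihbp1 (ENSMUSG00000022579.4, chromosome 15, 75427088 to 75428642, plus strand), the endothelial anchor of the lipase, had no peak in either list. The nearest listed peaks lay beyond the window, 81.2 kb downstream in eWAT (score 28.4) and 80.5 kb downstream in brain (score 21.8), both next to a start of Top1mt. Liver gave 9 borders with signals from 0.1545 to 0.5926. A single minus border lay 21 bp upstream of the start (75427067, signal 0.523). The 1 border pair (75446923 and 75446951, 28 bp apart) was near the edge of the window, just upstream of the start of Zfp41, a zinc finger gene. The share of endothelial cells in these samples is not known. For scale, 8 endothelial genes were looked up in windows of the same kind (Pecam1, Cdh5, Kdr, Tek, Tie1, Esam, Cldn5 and Emcn). Of these, 4 had an eWAT peak, against 28.7% of all genes, and 5 a brain peak, against 41.5%. They were led by Cdh5 (rank 1553) in eWAT and by Tek and Tie1 (both rank 2367) in brain. Whether these peaks came from endothelial cells was not tested.

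Cd36 (ENSMUSG00000002944.8, chromosome 5, 17287508 to 17394777, minus strand), the fatty acid receptor, carried 4 eWAT peaks and no brain peak, where 1.45% of all genes had at least 4 eWAT peaks and 0.331% had these with no brain peak. The strongest, which was also the best-placed eWAT peak of all 6 genes, lay in the first intron of the longest transcript, 12144 bp downstream of its start (17382559 to 17382708, score 43.6, rank 421). The next lay on an internal start, 57 bp downstream of the start of the shortest annotated transcript and in its first exon (17341583 to 17341732, score 24.3, rank 1553). The weakest lay 896 bp downstream of another internal start, in an intron (17354640 to 17354789, score 12.2, rank 5848). The remaining one was intergenic, 10102 bp upstream of the 5′ end (17404805 to 17404954, score 19.2, rank 2526). Of the 4, 2 were within 1 kb of an alternative start of Cd36, where 8.76% of all eWAT peaks lie within 1 kb of any start of a protein-coding gene. Per length, the window held 2.72 eWAT peaks per 100 kb, against 0.342 per 100 kb of the whole genome. The genome figure includes stretches far from any gene, and the 1 eWAT peak of Lpl gave 1.49 per 100 kb.

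The strongest Cd36 site was also bordered in liver, by 6 ChIP-exo borders within 100 bp of its centre, a number that 0.765% of all eWAT peaks reached. Singly these borders were not strong: their signals are reached by between 14.6% and 65.5% of all borders, and none had a p of at most 0.01. Plus borders lay at -27, 16 and 22 bp from the centre with signals of 0.3734, 0.4062 and 0.6128, and minus borders at 21, 29 and 49 bp with signals of 0.9221, 0.8407 and 0.9219. They formed 3 pairs with gaps of 48, 5 and 7 bp, of which those of 48 and 5 bp end at the same minus border. The summed signals of these pairs are reached by 47.7% to 56.2% of all pairs. The sequence is shown because fat and liver both mark it.
Cd36 eWAT site of the first intron (mm9 chr5:17382559-17382708, plus strand): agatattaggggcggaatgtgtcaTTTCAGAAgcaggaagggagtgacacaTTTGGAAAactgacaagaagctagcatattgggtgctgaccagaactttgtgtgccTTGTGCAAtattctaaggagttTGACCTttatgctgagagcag
Capitals mark, from left to right, 3 matches to TTNCNNAA, a short form of the C/EBP motif of the adipocyte and liver factors of that family, and 1 AGGTCA core on the minus strand. The last of the C/EBP matches, TTGCACAA on the minus strand, lay 37 bp from the centre, between the minus borders at 29 and 49 bp. TTNCNNAA alone is common (45.5% of eWAT peaks, 29.1% of regions 1000 bp away).

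The other Cd36 sites had little in liver. The weakest peak had 1 border (25 bp from its centre, signal 0.2781), and the peaks at the internal start and upstream of the gene had none within 5 kb. Of the 27 borders in the window (0.183 per kb, signals from 0.176 to 1.8548), 12 were on the minus strand. Outside the strongest site, pairs lay only in 2 places without a peak, an intronic one 25634 bp downstream of the 5′ end (17369123 and 17369164, summed signal 1.671, the highest at Cd36) and an intergenic one upstream (17410751 and 17410779, summed signal 1.229). No border lay within 1 kb of the 5′ end, and 2 lay within 1 kb of another Cd36 start, the nearest 187 bp from it.

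**Figure D3:**
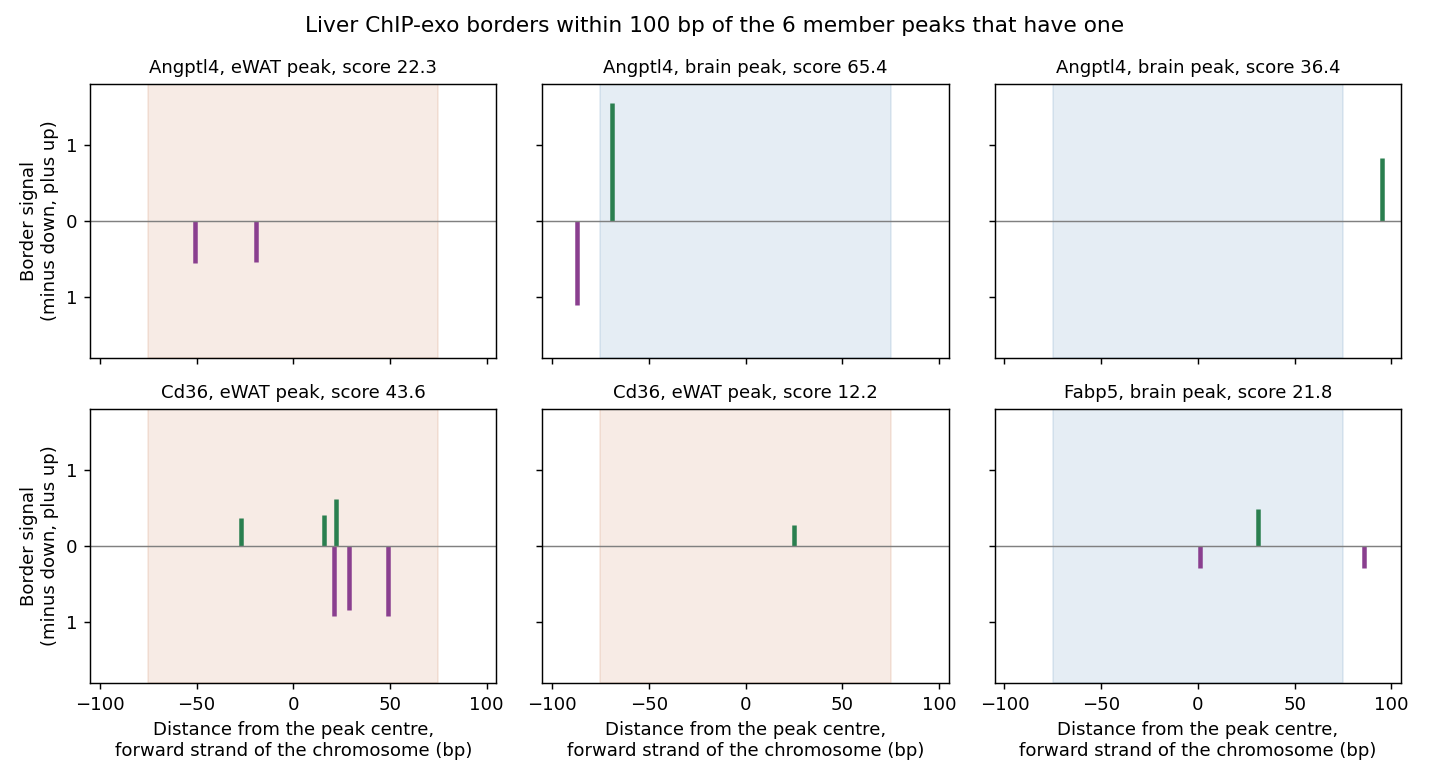
Signal of each liver ChIP-exo border within 100 bp of the centre of the 6 peaks that have one, plus-strand borders upward and minus-strand borders downward, against the distance from the peak centre in bp on the forward strand; shading marks the 150 bp peak (orange eWAT, blue brain). The Cd36 peak with a score of 43.6 has 6 borders, all inside the peak, while the borders of the Angptl4 brain peaks lie 69 to 95 bp from the centre.

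Fabp4 (ENSMUSG00000062515.2, chromosome 3, 10204347 to 10208576, minus strand), the fatty acid carrier of adipocytes, had an eWAT peak on each side and none in brain. One lay 2801 bp beyond the 3′ end (10201472 to 10201621, intergenic, score 30.4, rank 967), where the nearest start, 4324 bp away, is that of the neighbouring carrier gene Fabp9. The other lay 8095 bp upstream of the start (10216597 to 10216746, intergenic, score 19.2, rank 2526). At 4.52 per 100 kb this was the highest density of eWAT peaks among the 6 genes, from 2 peaks in a 44.2 kb window. The sequences are shown for their matches to the C/EBP motif and to the direct repeat.
Fabp4 eWAT downstream site (mm9 chr3:10201472-10201621, plus strand): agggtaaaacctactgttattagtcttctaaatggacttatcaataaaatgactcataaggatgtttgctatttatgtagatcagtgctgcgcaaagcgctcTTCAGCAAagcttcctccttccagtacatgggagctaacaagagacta
Fabp4 eWAT upstream site (mm9 chr3:10216597-10216746, plus strand): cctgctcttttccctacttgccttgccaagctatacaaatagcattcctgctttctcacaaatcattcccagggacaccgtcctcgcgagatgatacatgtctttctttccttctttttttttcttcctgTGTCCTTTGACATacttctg
Capitals mark a TTNCNNAA match (TTGCTGAA, minus strand) in the first, a motif that 45.5% of eWAT peaks hold. In the second they mark ATGTCAAAGGACA on the minus strand, a match with 2 mismatches to the direct repeat of AGGTCA with a spacing of 1 base (any letter), the element that PPARγ binds together with RXR. This was the 1 such match among the 13 peaks, 62 bp from the peak centre, and 4.18% of all eWAT peaks and 2.27% of regions 1000 bp away hold one.

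In liver, Fabp4 had few borders. Its window held 2, or 0.045 per kb, the lowest density of the 6 and the 27.0th percentile of all genes. It held no pair, where 51.0% of all genes have one. The border nearest to the downstream peak was 2518 bp away and that nearest to the upstream peak 10099 bp away. No border lay within 1 kb of the start.

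Fabp5 (ENSMUSG00000027533.9, chromosome 3, 10012548 to 10016607, plus strand), the more widely expressed carrier, showed the opposite arrangement from Fabp4, its relative on the same chromosome. It had a brain peak and no eWAT peak. The peak lay 2996 bp upstream of the start (10009478 to 10009627, intergenic). Its score of 21.8 (rank 6985 of 10687) was below the list median, at a level that 93.3% of the brain list reach. The peak was 6 score steps high in a list that begins at 4. Liver borders met it, with a minus border 1 bp from the centre, a plus border 31 bp and a further minus border 86 bp from it (signals 0.2881, 0.4841 and 0.2863). In this order the signals are reached by 80.4%, 48.2% and 80.7% of all borders. The plus border and the minus border at 86 bp formed the only border pair of the window, 55 bp apart. Its summed signal of 0.77 is reached by 88.9% of all pairs. The sequence, shown because brain and liver both mark it, held no match to the motifs searched.
Fabp5 brain upstream site (mm9 chr3:10009478-10009627, plus strand): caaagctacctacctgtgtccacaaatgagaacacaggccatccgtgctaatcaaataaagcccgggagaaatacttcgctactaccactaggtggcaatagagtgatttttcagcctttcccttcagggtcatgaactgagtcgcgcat
The window held 10 borders with signals from 0.1111 to 0.4841. Of these, 2 lay within 1 kb of the start, the nearest 40 bp from it.

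Every one of the 6 windows held a liver border, as did 87.7% of all genes, and 4 of the 6 (Angptl4, Gpihbp1, Cd36 and Fabp5) held an opposite-strand pair, against 51.0%. The 2 genes without a pair, Lpl and Fabp4, had eWAT peaks, and Gpihbp1, without a peak, had one. Of the 8 eWAT peaks 3 had a liver border within 100 bp, against 30% of the eWAT list, and of the 5 brain peaks 3 had one, against 36.4% of the brain list. A border pair lay within 100 bp at 1 of the 8 eWAT peaks (11.7% of the list), the Cd36 intron site, and at 1 of the 5 brain peaks (10.9%), that of Fabp5. Each of these counts rests on 8 or 5 peaks and is a description. Borders in the windows had a median signal of 0.428, and 43 of the 93 lay above the median of the whole list (0.4711 in a range from 0.0602 to 343.344).

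**Figure D4:**
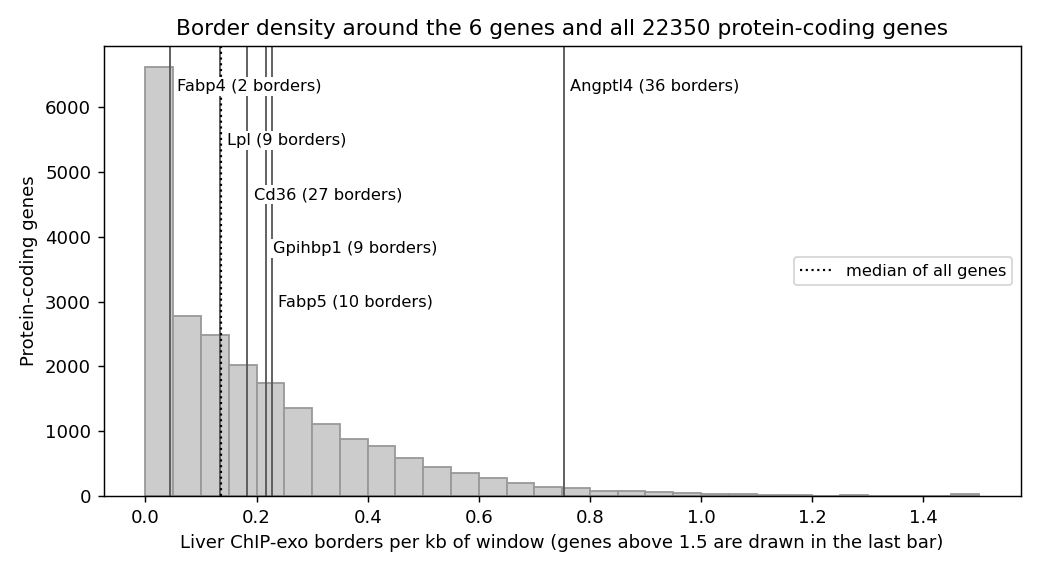
Histogram of liver ChIP-exo borders per kb of window for all 22350 protein-coding genes (grey; the dotted line is their median, 0.135), with the 6 genes as vertical lines labelled by name and number of borders. Angptl4 stands in the upper tail at 0.753 per kb, Fabp4 in the lowest bar at 0.045, and the other 4 between 0.134 and 0.227.

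The eWAT sites were poorer in G and C than most of their list, and the brain sites were not. G and C made up 38.0% to 47.3% of the 8 eWAT sites (median 43.3%, against a median of 48.7% and a lower quartile of 44.0% in the whole list) and 47.3% to 67.3% of the 5 brain sites (median 55.3%, equal to that of the list). Within 1 kb of a start of their own gene lay 2 of the 8 eWAT sites, both at Cd36, and 2 of the 5 brain sites, both at Angptl4. Counting the starts of any protein-coding gene adds the Rab11b exon site, for 2 of 8 in eWAT (8.76% of the list) and 3 of 5 in brain (37.9%). Over the 13 sites the AGGTCA core was found in 4 (3 of 8 in eWAT, where 19% of the list hold it, and 1 of 5 in brain, where 11.7% do) and the response element in 1. A direct repeat of AGGTCA with a spacing of 2 bases, allowing 2 mismatches, was found in 1 eWAT site, the weakest of Cd36 (4.99% of the eWAT list), an E-box in none of the 8 (11.4%), and TTNCNNAA in 3 of the 8 (45.5%). The 5 brain sites held no response element (2.16% of the brain list), no direct repeat with a spacing of 1 base (1.97%) or 2 bases (2.85%) and no TTNCNNAA (22.6%). With 1 mismatch allowed, 4 of the 8 eWAT sites held a response element, as did 16.5% of the eWAT list, and 1 of the 5 brain sites, as did 10.6% of the brain list.

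Just outside the 20 kb limit lay a further eWAT peak at Angptl4, 20.9 kb upstream of the gene (score 12.2, rank 5848, nearest to a start of Kank3). The site closest to the limit on its inner side was the Rab11b intron peak, 16265 bp beyond the end of Angptl4. At Lpl the next eWAT peaks were 30.4 kb upstream (score 19.2, rank 2526) and 46.7 kb downstream (score 59.8, rank 184). The latter scored higher than every eWAT peak inside the 6 windows.

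The other genes of the route, from lists chosen with earlier results known, are to be read against the shares of all genes given above (28.7% with an eWAT peak, 41.5% with a brain peak and 51.0% with a border pair). Of 13 genes that act on the lipase or belong to its family, 9 had an eWAT peak, 8 a brain peak and 12 a liver border pair, led in eWAT by Apoc3, the apolipoprotein that inhibits the lipase (score 54.7, rank 231), and in brain by a site shared by the windows of Apoc1 and Apoc2, the latter the cofactor of the lipase (score 120, rank 80). Among 14 genes of fatty acid transport and activation, eWAT peaks were listed for 5 and brain peaks for 7, led by Acsl1 (rank 967 in eWAT) and Slc27a1 (rank 771 in brain). Of 8 other fatty acid binding protein genes, eWAT peaks were listed for 6 and a brain peak for 1; Fabp9 and Pmp2 share the downstream site of Fabp4, and the 1 in brain was Fabp7, the carrier of glia (score 210.9, rank 22). Of 5 lipoprotein receptor genes, 4 had an eWAT and 4 a brain peak, with Lrp1 first in both. Of 12 regulators, 8 were bound in eWAT and 9 in brain. Among these, Pparg had 5 eWAT peaks (best score 30.4, rank 967) and no brain peak. Of the PPARγ targets among the 6 genes, Lpl, Cd36 and Fabp4 also had eWAT peaks alone, while Angptl4 had peaks in both lists, and a link was not tested.

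The pattern of the 5 genes with a peak was also compared with that of genes sharing no site with them over 3 values, the percentile ranks of the best eWAT score, the best brain score and the border density. Closest to Cd36 were Sec63, Zfp516 and Cnih (distances of 0.962, 1.01 and 1.05 percentile points), and closest to Fabp4 were Akap12, Hk2 and Cask (0.566, 0.59 and 0.884). The nearest to Angptl4 lay further off, Idh2, Gpr146 and Ndufa6 at 2.17, 2.27 and 2.59. Lpl was closest to Akd1, Sept10 and 4932431P20Rik (0.188, 0.327 and 0.376) and Fabp5 to Zfp784, Ube2k and Gm10767 (0.0492, 0.112 and 0.166), where many genes share a score. Since genes without a peak are tied, these distances describe 3 values per gene and no more.

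The files hold sites and no RNA, so the labelled tissues could not be checked by expression. Sites near marker genes are given as counts without a test, against the same 28.7% and 41.5% of all genes: 8 of 8 adipocyte genes had an eWAT and 6 of 8 a brain peak, led by Pnpla2 in both, 1 of 7 neuron genes an eWAT and 5 of 7 a brain peak, led by Rbfox3 in both, and 2 of 7 hepatocyte genes an eWAT and 0 of 7 a brain peak, with G6pc first, while all 7 had a liver border pair. Of 7 macrophage genes 3 had an eWAT peak, Csf1r and Lyz2 foremost, and 2 a brain peak, Cd68 and Ptprc. Macrophages also express Cd36, Fabp4 and Fabp5, and which cells of each tissue carried the sites described was not tested.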

How the data were processed

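Rev-erbα binding was measured by ChIP-seq in eWAT and brain and by ChIP-exo in liver. The authors deposited 1 peak list each for eWAT and brain, with a score per peak whose unit is not defined, and 1 border list for liver, which per the file headers gives a signal and a p-value (0.00503 to 0.05) per border as the authors computed them. The submitters' processing notes name mm9, Bowtie 0.12.8 (ChIP-seq) or 1.1.1 (ChIP-exo) and HOMER, with no roles. How peaks and borders were called, with which inputs, and whether replicates were pooled is not given in the sources used here, and sequencing depth is unknown.

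Sites were placed by their central base in windows from 20 kb before to 20 kb after each gene body (GENCODE vM1, NCBIM37 sequence, which is mm9; all peaks fit its chromosome lengths) with Python 3.11.15, pandas 2.3.3 and pysam 0.24.0. Sharing needed 1 bp of overlap, a border counted within 100 bp of a centre, and a pair was a plus border with the first minus border lying 5 to 60 bp downstream. Motifs were searched in the 150 bp peaks on both strands: the Rev-erbα response element (RORE), its AGGTCA core, direct repeats of AGGTCA spaced by 1 or 2 bases (2 mismatches over the 12 fixed bases; matches can overlap a core), the E-box CACGTG and the C/EBP motif TTNCNNAA. Scores lay within 0.06 of whole steps. No test was run, since the lists hold no replicate values. The code was tested on simulated data. All 6 genes and all their peaks were named; other lists gave up to 3 genes per tissue, 3 of them matched by an older symbol (RefSeq names). The members and lists were chosen with earlier results of these data known. Alternatives to each setting are given in the closing section.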

Additional observations from a re-analysis of the deposited data

How the results depend on the processing

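No paired analysis was possible because each group is 1 list without replicate columns, and for the same reason no replicate could be left out. Of 41 alternatives 19 stayed within 1.5 times the main count. The 19 include a longer overlap for sharing, which could only give 0 again. No eWAT site was shared with brain under a looser distance between centres. With the gene body alone, eWAT peaks were left at 1 gene (13.8% of all genes) and brain peaks at 1 (18.2%), with 3 and 2 peaks, 39 borders and 2 genes with a pair. With 10 kb on each side eWAT peaks were found at 4 genes (22.5%) and brain peaks at 2 (34.7%), with 3 brain peaks left. With 50 kb there were 15 eWAT and 9 brain peaks and 166 borders, with eWAT peaks at 4 genes (43.3%) and brain peaks at 3 (54.8%), Lpl being added. Among scores above the list median 1 gene had a brain peak, with 3 peaks in all. With peaks given to the nearest start, 3 brain peaks were left, those of Rab11b dropping out. Borders with a p of at most 0.01 left 24 borders and 0 genes with a pair, so every pair described includes a border with a higher p. They left 1 eWAT peak (Angptl4) and 1 brain peak (Fabp5) with a border, and none at the strongest Cd36 site. A low p did not go with a high signal. The highest signal in the windows (2.2779, Angptl4) had a p of 0.0108 and dropped out. The lowest (0.1111, Fabp5) had a p of 0.00503 and stayed. The share of all borders and genes left by this limit was not computed. Within 50 bp, 1 brain peak had a border. The AGGTCA core alone was in 4 of the 13 peaks, and a response element with 1 mismatch in 5. The direct repeat was in 0 peaks with 1 mismatch and 7 with 3 mismatches. These 7 were 5 of the 8 eWAT peaks, where 20.9% of the list hold it, and 2 of the 5 brain peaks, where 13.5% do. Precision is limited by coarse scores (6 to 18 steps for the brain peaks) and unknown depth.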

Other observations

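The highest-scoring eWAT peak within 50 kb of Lpl lay outside the window used and was listed in all 3 tissues. It was intergenic, 46.7 kb beyond the 3′ end of Lpl and 73.7 kb from its first start, with the next gene downstream, Slc18a1, 83.5 kb further on. In eWAT it scored 59.8 (rank 184, 59 steps) and in brain, at a position overlapping by 144 bp, 18.2 (rank 9969, 5 steps). A liver plus border at 71478077 (signal 3.6962, a level that 0.507% of all borders reach) and a minus border at 71478101 (signal 2.0949) flanked its centre. It was singled out after its values were seen, and whether it acts on Lpl was not tested.
Lpl distal eWAT site (mm9 chr8:71478018-71478167, plus strand): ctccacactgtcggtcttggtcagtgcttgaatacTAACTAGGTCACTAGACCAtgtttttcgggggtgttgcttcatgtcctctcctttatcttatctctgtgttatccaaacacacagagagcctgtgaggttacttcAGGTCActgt
Capitals mark, at the left, the response element TAACTAGGTCA with AGGTCACTAGACCA, a match with 2 mismatches to the direct repeat with a spacing of 2 bases, and at the right a second AGGTCA core. The plus border lies just beyond the repeat, which ends at 71478071. In the 50 kb around Lpl there were 6 eWAT peaks and 1 brain peak.

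Fat sites continued beyond Fabp4. From the Fabp4 window to 20 kb past Fabp12, which lies upstream of Fabp4, 7 eWAT peaks and no brain peak were listed. They include the 2 Fabp4 peaks already described, and peaks at 10247289 to 10247438 (score 27.4) and at 10290135 to 10290284 (score 21.3) within Fabp12. Those starting at 10263744, 10307642 and 10312116 scored 12.2, 11.1 and 11.1, below the list median of 14.2. How many regions of this length hold as many peaks was not computed. The 3 brain peaks of the 328.6 kb from Fabp5 to Fabp12 all lay between the region just upstream of Fabp5 and 10127315, before Pmp2 and Fabp4.

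The brain site of Fabp5 held the letters CCACTAGGTGGCA, a match to part of the motif of the insulator protein CTCF in which the fourth, the fifth, the eighth and the ninth letter are free. The motif was searched after the sequence had been read. It was in 1.40% of brain peaks (0.711% of regions 1000 bp away) and in 2.76% of eWAT peaks (0.588%), and in 1 of the 13 sites. The match lay 17 bp from the peak centre, between a liver minus border on its left and a plus border on its right. This order is the reverse of a pair as defined here, and the match lay outside the border pair of the site.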
